A study of Ovis aries with 16 samples.

Results

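CIDEA was followed through its 2 transcripts, CIDEA-201 and CIDEA-202, among the 35219 transcripts of the deposited table. The members were the rows whose Ensembl identifiers the study's marker table gives for these names, ENSOART00020036590 and ENSOART00020036602, both assigned there to the gene ENSOARG00020023476. The same marker table also prints the identifier of CIDEA-202 beside TCF21, so the identity of that row rests on its CIDEA entry. The row of CIDEA-201 carries no such doubt. The deposited table gives neither positions nor gene names, and the position of CIDEA in the genome was not analysed here.

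The libraries came from perirenal fat of near-term fetal sheep, 1 library per fetus and 4 fetuses per group. Crossbred Columbia-Rambouillet ewes carried single fetuses. Male controls (MC) and female controls (FC) came from ewes kept at a moderate ambient temperature and pair-fed. Growth-restricted males (MFGR) and females (FFGR) came from ewes exposed to high ambient temperature in gestation, which limits the placenta and with it fetal growth. The label for these animals is hyperthermia, and heat exposure of the ewe and growth restriction of the fetus cannot be told apart in this design.

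CIDEA is a protein of the CIDE family that sits on lipid droplets, the storage bodies of neutral fat in adipocytes. CIDE proteins gather where droplets touch and let lipid pass from a smaller to a larger droplet, so that droplets grow by fusion. CIDEA is abundant in brown adipocytes and is used as a brown fat marker beside UCP1, the mitochondrial uncoupling protein that turns the proton gradient into heat. In lambs the perirenal depot is the main store of brown fat at birth, and it loses its brown character in the weeks that follow.

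Values are TPM, the share of transcript molecules scaled for transcript length, and they sum to the same fixed total in every library. TPM keeps no read counts, so the depth of a library is unknown and precision was judged from the spread between fetuses. The tissue carried the markers its label asks for. UCP1 lay between 1317 and 4430 TPM over the 16 libraries, and ADIPOQ, the adipocyte hormone adiponectin, between 1741 and 3293 TPM. In bulk tissue, fewer brown adipocytes and less CIDEA per cell cannot be told apart.

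CIDEA-201 was the main transcript of the gene in every library. It measured 62.1, 91.5, 84.8 and 83.0 TPM in MC fetuses 1 to 4 and 68.7, 88.7, 78.9 and 69.3 TPM in MFGR fetuses 1 to 4. The males of both groups thus shared 1 range. In females CIDEA-201 measured 115, 93.5, 75.3 and 91.0 TPM in FC fetuses 1 to 4. The FFGR fetuses measured 111, 122, 126 and 128 TPM. All 4 FFGR libraries lay above every male library, while the first FC fetus lay above the lowest FFGR fetus. Between MFGR and FFGR, 42.3% of the 4574 features with at least 20 TPM in 3 libraries did not overlap by level. No such share was computed for FFGR against both male groups together. By level CIDEA-201 ranked between 710 and 1253 from the top of the 35219 transcripts.

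CIDEA-202 was listed at a lower level and with wide scatter in FC. It measured 13.9, 12.5, 15.0 and 13.4 TPM in MC and 10.8, 11.8, 15.8 and 10.2 TPM in MFGR. In FC it measured 22.4, 10.2, 5.94 and 13.3 TPM, and in FFGR 14.7, 14.2, 16.1 and 13.3 TPM. The FC group held both the highest and the lowest CIDEA-202 value of the series, in fetus 1 and fetus 3. CIDEA-202 reached 20 TPM in the first FC fetus alone and therefore missed the filter of 20 TPM in 3 libraries that CIDEA-201 passed.

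The sum of both transcripts depends less than either alone on how reads they share were divided between them. The doubt about the identity of CIDEA-202 carries over to the sum, and CIDEA-201 is therefore given beside it. Summed CIDEA averaged 136 ± 7.77 TPM in FFGR and 107 ± 23.3 TPM in FC (SD, n = 4). The male means were 94.0 ± 12.4 TPM in MC and 88.5 ± 10.7 TPM in MFGR. The 4 libraries ran from 76.0 to 104 TPM in MC and from 79.5 to 100 TPM in MFGR. They ran from 81.3 to 138 TPM in FC and from 125 to 142 TPM in FFGR. In falling order of the means the groups stood as FFGR, FC, MC and MFGR. The neighbours FC and MC, and MC and MFGR, differed by less than the larger SD of each pair. Of the FC fetuses, fetus 1 alone reached the FFGR range.

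**Figure D1:**
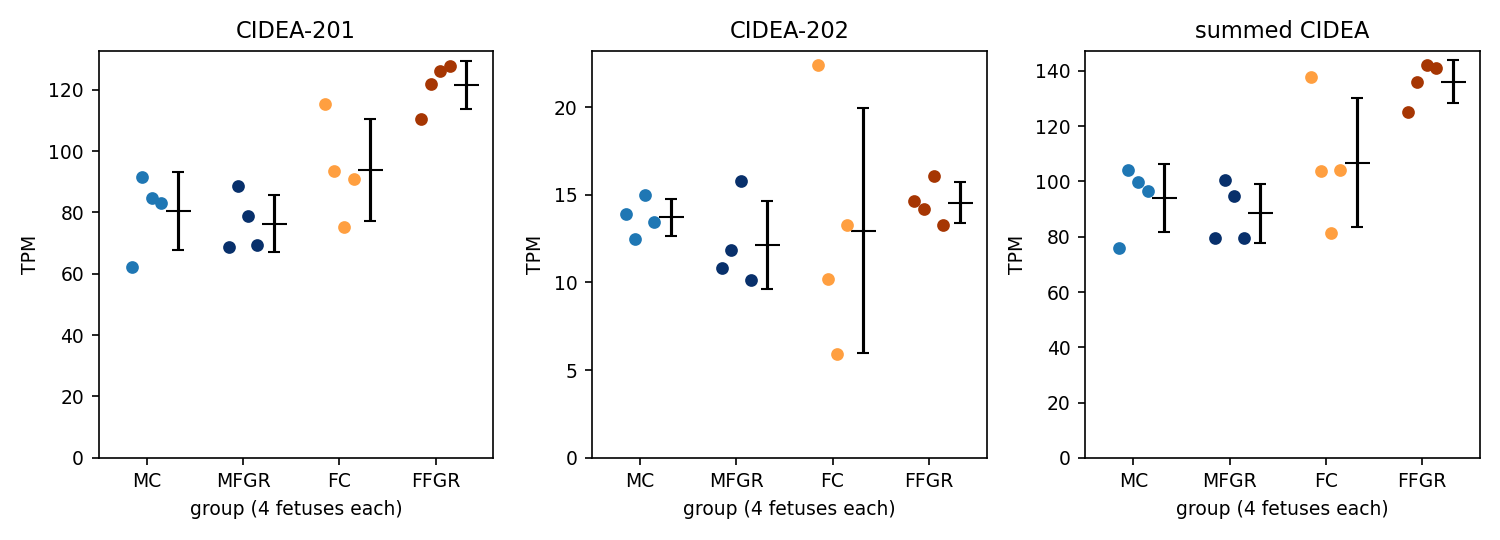
TPM of CIDEA-201, CIDEA-202 and their sum in the 16 libraries by group, each point 1 fetus, with the mean and SD of 4 fetuses as a bar beside the points. Summed CIDEA lies between 125 and 142 TPM in FFGR and between 76.0 and 104 TPM in the 8 male libraries, and the FC points run from 81.3 to 138 TPM. By level, 42.3% of the 4574 tested features did not overlap between MFGR and FFGR.

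Summed CIDEA was tested in place of its 2 transcripts among the 4574 features with at least 20 TPM in 3 libraries. Values entered as log2(TPM + 1) in limma with 1 mean per group over all 16 libraries. A call needed a fold above 1.5 together with an adjusted p (Benjamini-Hochberg, over all 4574) under 0.05. Folds below are on the scale of TPM + 1, with 95% intervals from the same fit.

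Between growth-restricted fetuses, CIDEA was higher in females than in males. Summed CIDEA was 1.54-fold higher in FFGR than in MFGR (95% interval 1.24 to 1.91), a log2 fold change of -0.62 (SE 0.14) for MFGR against FFGR with a limma adjusted p of 0.00285. The highest MFGR library had 100 TPM and the lowest FFGR library 125 TPM, so the groups did not overlap. This call is no rarity in the comparison, since 30.1% of the 4574 features were called and 42.3% had groups that did not overlap. CIDEA-201 alone was 1.59-fold higher in FFGR (95% interval 1.29 to 1.96, limma adjusted p = 0.00130).

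The fold stood close to the threshold of 1.5, and the call was lost where the fold fell under it. Without MFGR fetus 1 or MFGR fetus 4 the log2 fold change was -0.57, and the limma adjusted p was 0.0105 and 0.0108. With median-of-ratios scaling it was -0.43 and with quantile normalization -0.37 (limma adjusted p = 0.0285 and 0.0330). Under the same scalings the fold of CIDEA-201 also fell under 1.5, at -0.47 and -0.40 on the log2 scale.

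The median of all tested features was itself lower in males. For MFGR against FFGR it was -0.19 on the log2 scale, and relative to it summed CIDEA stood at -0.43. With median-of-ratios scaling, which brought the median to -0.0016, the distance was -0.42, and with quantile normalization it was -0.45.

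Between control fetuses, CIDEA did not pass the test. Summed CIDEA in MC was 0.891 of that in FC (95% interval 0.719 to 1.10, log2 fold change -0.17, SE 0.14, limma adjusted p = 0.374). The interval spans a fall in MC to 0.719 of FC, so a difference of that size cannot be told from none with these fetuses. Of the 4574 features 28.8% were called between MC and FC, and 37.1% had groups that did not overlap. The median of all features was -0.20 on the log2 scale, and relative to it CIDEA stood at 0.04. The direction was not fixed, since quantile normalization gave a log2 fold change of 0.14.

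Averaged over controls and growth-restricted fetuses, CIDEA was lower in males, at 0.761 of the female level (95% interval 0.654 to 0.886, log2 fold change -0.39, SE 0.10). The limma adjusted p was 0.00426, and the fold was under 1.5, so CIDEA was not among the 30.3% of features called. At any fold, 57.3% of features had an adjusted p under 0.05 in this contrast. The median of all features was -0.18, which left CIDEA at -0.21 relative to it. The adjusted p rose to 0.317 with quantile normalization, where the log2 fold change was -0.11.

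Male and female libraries also differed in their mitochondrial transcripts, which touches every comparison of the sexes. ND6 relative to ND5 lay between 0.662 and 0.753 in the 8 male libraries and between 0.0566 and 0.0867 in the 8 female libraries. The share of TPM held by 11 mitochondrial transcripts averaged 32.2% ± 4.92 in FFGR, 33.4% ± 4.28 in FC, 33.6% ± 4.02 in MFGR and 39.3% ± 3.55 in MC (SD, n = 4). At an adjusted p under 0.05 and any fold, 5 of the 11 rose and 2 fell in MFGR against FFGR, where 12% of all transcripts rose and 32.8% fell by that rule. Rescaled without these transcripts, summed CIDEA had a log2 fold change of -0.59 for MFGR against FFGR, -0.036 for MC against FC and -0.32 for sex averaged over growth restriction. For MFGR against MC it was -0.21 on that scale. The ND6 difference followed sex in all 16 libraries. Any other difference between male and female libraries therefore cannot be told apart from sex here. That limit includes the CIDEA call between MFGR and FFGR. The part of the ND6 difference in the CIDEA result was not tested.

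In males no difference in CIDEA between growth-restricted and control fetuses passed the test. Summed CIDEA in MFGR was 0.944 of that in MC (95% interval 0.761 to 1.17, log2 fold change -0.08, SE 0.14, limma adjusted p = 0.799). The direction was not fixed, since median-of-ratios scaling gave 0.036 and a weight for each library 0.024 on the log2 scale. In this comparison 0.459% of features were called, and 9.71% had groups that did not overlap.

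In females the mean of CIDEA was higher with growth restriction, but the difference did not pass over all features. Summed CIDEA was 1.29-fold higher in FFGR than in FC (95% interval 1.04 to 1.60, log2 fold change 0.37, SE 0.14). The unadjusted p in limma was 0.0221 and the adjusted p 0.639. The called share was 0 of 4574 features, 0%, while 337 features had an unadjusted p under 0.05 in limma, and 3.85% had groups that did not overlap. Single FC fetuses set the size. Without FC fetus 1, whose sum was 138 TPM, the log2 fold change was 0.50, and without FC fetus 3, at 81.3 TPM, it was 0.25.

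The difference between growth-restricted and control fetuses was 0.37 in females and -0.08 in males on the log2 scale, and the test of whether these differ did not pass over all features. The interaction was -0.45 on the log2 scale (SE 0.20, 95% interval -0.89 to -0.02), with an unadjusted p of 0.0427 and an adjusted p of 0.444 in limma. Over the 4574 features 0 were called for the interaction, 0%, and 511 had an unadjusted p under 0.05, while limma with a weight for each library called 53. Leaving out 1 library at a time gave interaction values from -0.58 to -0.33.

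Averaged over both sexes, summed CIDEA was 1.10-fold higher with growth restriction (95% interval 0.949 to 1.29, limma adjusted p = 0.562). Here 0.0437% of features were called. The average joins a difference of -0.08 in males and one of 0.37 in females, and its interval leaves out changes above 1.29-fold.

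**Figure D2:**
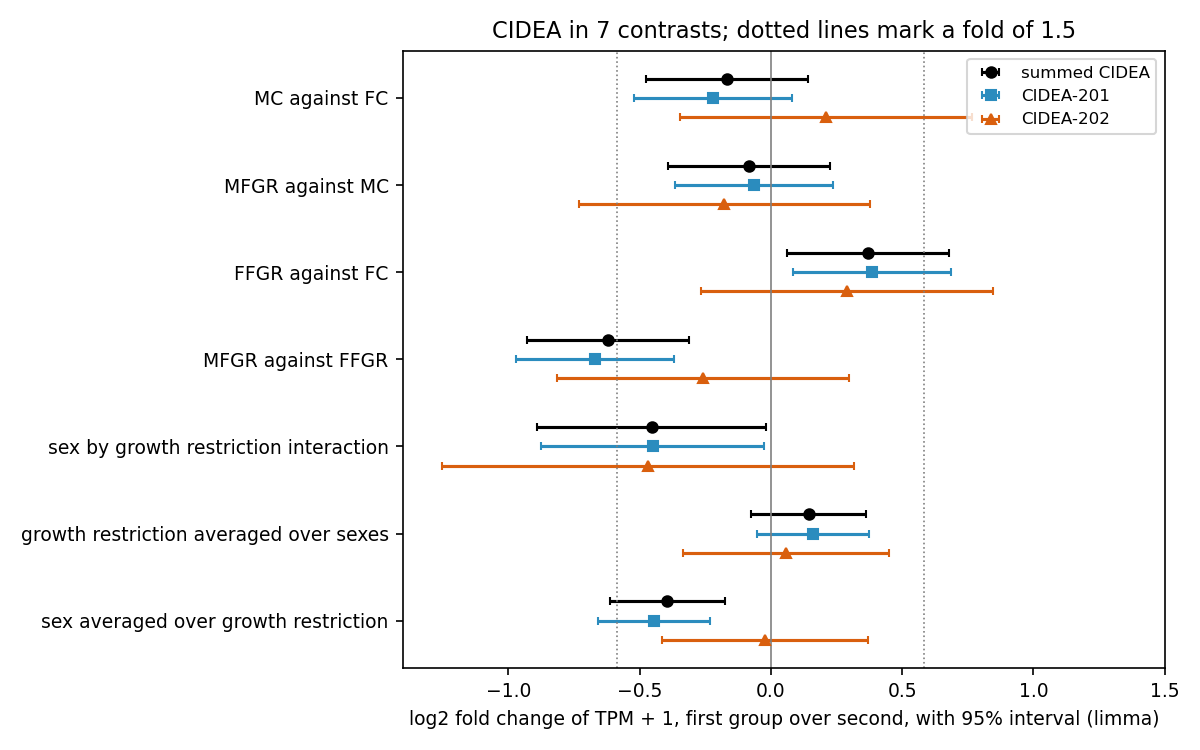
Log2 fold change of TPM + 1 with its 95% interval in limma for summed CIDEA, CIDEA-201 and CIDEA-202 in 7 contrasts, on a linear axis with dotted lines at a fold of 1.5. The points of summed CIDEA and CIDEA-201 for MFGR against FFGR lie beyond the dotted line at -0.62 and -0.67, and all other points lie inside the dotted lines.

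CIDEA-202 passed the test in none of these contrasts. Its values come from a second fit with the filter lowered to 1 TPM in 3 libraries, which 17291 transcripts passed, and its log2 fold changes there lay between -0.47 and 0.29. For MFGR against FFGR the value was -0.26 (SE 0.26, 95% interval -0.81 to 0.30, limma adjusted p = 0.504). The interval holds both 0 and the value of CIDEA-201. In that fit 18.0% of transcripts were called for MC against FC, 21.1% for MFGR against FFGR and 23.2% for sex averaged over growth restriction. The called shares were 0.0463% for MFGR against MC, 0.0231% for FFGR against FC, 0.0116% for the interaction and 0% for growth restriction averaged over sexes, where 1608 transcripts had an unadjusted p under 0.05 in limma.

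The share of CIDEA-202 in the gene's TPM was higher in every growth-restricted male than in any growth-restricted female, but the difference did not pass the test. CIDEA-202 made up 13.6%, 11.8%, 16.7% and 12.8% of summed CIDEA in MFGR fetuses 1 to 4, and 11.7%, 10.4%, 11.3% and 9.42% in FFGR fetuses 1 to 4. The closest pair of libraries stood at 11.8% and 11.7%. By level, 42.3% of the 4574 features did not overlap between these groups. The same share was not computed for ratios of transcripts. The log2 ratio of CIDEA-202 over CIDEA-201 was 0.41 higher in MFGR (p = 0.0286 in a two-sided exact permutation test, which cannot go lower with 4 against 4). Adjusted over the 4 group comparisons of this ratio the p was 0.114, so the difference did not pass.

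In controls the share of CIDEA-202 overlapped between the sexes. Its mean was 14.8% ± 2.64 in MC, and the FC mean was 11.5% ± 3.84 (SD, n = 4). The exact permutation test on the log2 ratio gave a two-sided p of 0.200. FC again had the widest spread, from 7.31% in fetus 3 to 16.2% in fetus 1. Neither MFGR against MC (exact permutation p = 0.543) nor FFGR against FC (exact permutation p = 0.743) passed. The share depends on how Salmon divided reads that both transcripts could have given. The effect of that division was not tested.

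**Figure D3:**
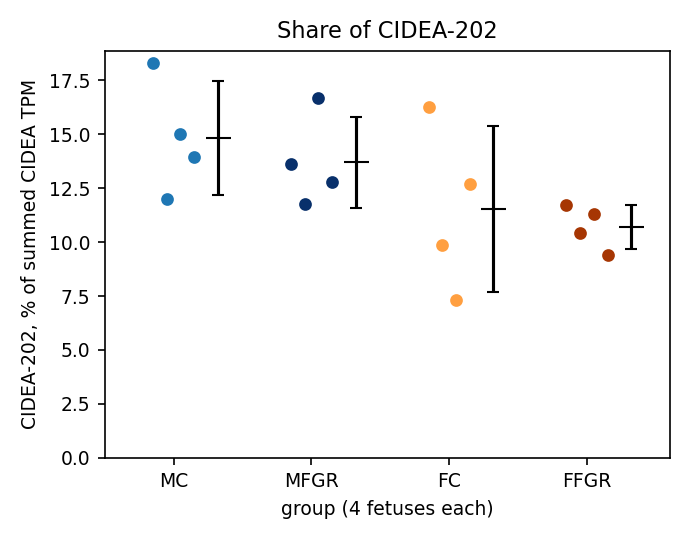
CIDEA-202 as a percent of summed CIDEA TPM in each library by group, each point 1 fetus, with mean and SD of 4 fetuses beside the points. The MFGR points lie between 11.8% and 16.7%, just above the FFGR points between 9.42% and 11.7%, and the FC points spread from 7.31% to 16.2%.

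UCP1, the other brown fat marker at hand, was highest in the female fetus with the least CIDEA. FC fetus 3 had the highest UCP1 of the series, 4430 TPM, and the lowest summed CIDEA of the females, 81.3 TPM. FC fetus 1 had 1839 TPM of UCP1 and 138 TPM of summed CIDEA. With the group means taken off, log2 values of UCP1 and summed CIDEA had a Pearson r of -0.16 and a Spearman rho of -0.0029 over the 16 libraries. Without FC fetuses 1 and 3, the 2 fetuses farthest from the median, r was 0.36. UCP1 was 2211 ± 562 TPM in MFGR and 2450 ± 738 TPM in FFGR (SD, n = 4), where CIDEA had differed. Its log2 fold change of -0.14 for MFGR against FFGR did not pass (limma adjusted p = 0.767), with an SE of 0.34 beside 0.14 for CIDEA.

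Counted per length, UCP1 stood at 13.2 to 54.5 times summed CIDEA. The ratio averaged 17.9 ± 4.70 in FFGR, 27.9 ± 18.6 in FC, 20.6 ± 8.36 in MC and 25.2 ± 6.12 in MFGR (SD, n = 4). For MFGR against FFGR the log2 ratio differed by 0.48 (exact permutation test, two-sided, p = 0.114). With p adjusted over 12 comparisons of marker ratios this became 0.343, and the ranges overlapped.

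ADIPOQ kept a narrower ratio to CIDEA. It stood at 19.9 ± 4.49 times summed CIDEA in FFGR, 23.4 ± 1.67 in FC, 23.0 ± 4.49 in MFGR and 24.9 ± 4.05 in MC (SD, n = 4). In none of the 4 comparisons did this ratio pass (exact permutation test, smallest p = 0.200). ADIPOQ itself was 2015 ± 292 TPM in MFGR and 2699 ± 524 TPM in FFGR, with a log2 fold change of -0.41 that did not pass (limma adjusted p = 0.0797). The ADIPOQ and CIDEA means were thus ordered alike, FFGR, FC, MC and MFGR.

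FABP4, the fatty acid carrier of mature adipocytes, was higher in the growth-restricted group in which CIDEA was lower. It stood at 126.6, 45.7, 33.98 and 77.7 times summed CIDEA in MFGR fetuses 1 to 4. In FFGR fetuses 1 to 4 the ratio was 14.4, 20.6, 15.7 and 15.97, below every MFGR fetus. By level, 42.3% of all features also had no overlap between MFGR and FFGR, and no such share was computed for ratios. The log2 ratio was 1.92 higher in MFGR (exact permutation p = 0.0286, the smallest allowed), and the p adjusted over the 12 comparisons was 0.171. The marker ratios, those of UCP1 and ADIPOQ included, were chosen after the values were seen. Their p-values are therefore no independent evidence. FABP4 alone was 2.45-fold higher in MFGR than in FFGR (log2 fold change 1.29, SE 0.44, limma adjusted p = 0.0257). By an adjusted p under 0.05 at any fold, 12% of all transcripts rose there. In controls both means were higher in FC. FABP4 was 5205 ± 3582 TPM in FC and 2445 ± 1140 TPM in MC, and summed CIDEA averaged 107 and 94.0 TPM. The FABP4 log2 fold change of -0.97 for MC against FC did not pass (limma adjusted p = 0.0878).

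Between FFGR and FC the FABP4 ratio also had no overlap, from 14.4 to 20.6 in FFGR and from 21.2 to 127.6 in FC. By level, 3.85% of all features had no overlap between FFGR and FC, and no such share was computed for ratios. For the ratio the exact permutation p was 0.0286 and the adjusted p 0.171. The log2 difference of -1.35 leaned on FC fetus 3, without which it was -0.82. FABP4 itself overlapped, from 1801 to 2796 TPM in FFGR and from 2200 to 10369 TPM in FC. Its log2 fold change of -0.98 for FFGR against FC did not pass (limma adjusted p = 0.652).

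**Figure D4:**
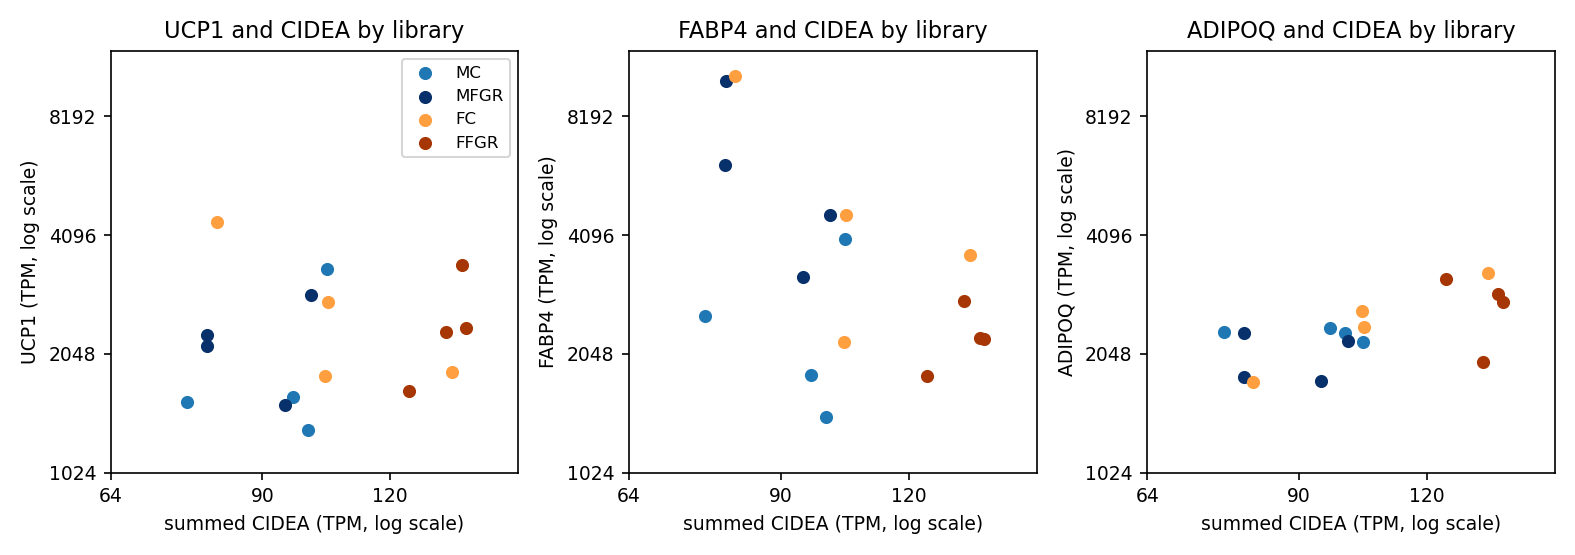
UCP1, FABP4 and ADIPOQ against summed CIDEA, all in TPM on log axes, each point 1 of the 16 libraries, coloured by group. The FC fetus with 81.3 TPM of CIDEA has the highest UCP1, 4430 TPM, and a FABP4 of 10369 TPM, and the 4 FFGR points lie at the right with FABP4 between 1801 and 2796 TPM.

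Markers of other adipocyte states differed in mean between some of these groups. THY1, a surface protein of preadipocytes and stromal cells, summed over its 2 listed transcripts, had 49.2 ± 29.9 TPM in FFGR, 61.8 ± 25.9 TPM in FC, 25.9 ± 9.49 TPM in MFGR and 63.4 ± 18.9 TPM in MC (SD, n = 4). The white fat marker HOXC9 was 4.50 ± 1.63 TPM in MC and 3.42 ± 0.840 TPM in MFGR, against 9.73 ± 1.29 TPM in FC and 8.30 ± 1.12 TPM in FFGR. Leptin, listed as ob, was 24.2 ± 12.9 TPM in MFGR and 13.2 ± 3.52 TPM in FFGR, against 29.3 ± 12.8 TPM in MC and 27.4 ± 12.8 TPM in FC. HOXC9, which missed the filter of 20 TPM and was tested at that of 1 TPM, passed between MFGR and FFGR (log2 fold change -1.09, limma adjusted p = 0.000601). In that fit 21.1% of transcripts were called between these groups. In the fit at 20 TPM ob did not pass (0.70, limma adjusted p = 0.153). Of the THY1 transcripts, ENSOART00020024873 was lower in MFGR than in FFGR (-2.85, limma adjusted p = 0.000210), and the other did not pass (0.37, limma adjusted p = 0.541). At an adjusted p under 0.05 and any fold, 32.8% of all transcripts fell in MFGR against FFGR. HOXC9 and ENSOART00020024873 were also lower in MC than in FC (-0.995 and -2.21, limma adjusted p = 0.00144 and 0.00179). Between growth-restricted and control fetuses of the same sex, none of these transcripts passed. For MFGR against MC the limma adjusted p was 0.264 for ENSOART00020024873 and 0.184 for the other THY1 transcript. For FFGR against FC that of ob was 0.648. The part of these markers in the CIDEA result was not tested. Markers of endothelium, macrophages, blood, muscle, kidney, adrenal and lymph node could not be matched to transcripts.

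Within the groups, some named transcripts ran with CIDEA and others ran opposite to it. Of the 17 named transcripts that passed the filter, the 5 with the largest Pearson r in size were ND2 (-0.50), ADIPOQ (0.47), FABP4 (-0.47), the mitochondrial COX2 (-0.44) and the THY1 transcript ENSOART00020024873 (0.42), over 16 libraries with the group means taken off. Apart from that of COX2, these values leaned on FC fetuses 1 and 3. Without both the r of ADIPOQ was -0.10, that of FABP4 -0.24, that of ND2 -0.23, that of COX2 -0.37 and that of the THY1 transcript 0.20. Over the 4573 other features the median r was 0.16, and 90% of them lay between -0.33 and 0.52. Of the 5 named above, ND2, FABP4 and COX2 lay below that range over all 16 libraries. Among transcripts without a name, ENSOART00020029816 (r = 0.86) and ENSOART00020020248 (r = 0.82) ran most alike, and ENSOART00020015159 (r = -0.76) and ENSOART00020028682 (r = -0.74) ran most opposite. All libraries share the TPM scale, so these values are descriptions.

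The thermogenesis transcripts listed by the study were lower in males in both comparisons of the sexes. The study chose these 17 transcripts on the same libraries, as lower in MC than in FC, so their direction there is no independent evidence. A member counts as changed at any fold once its adjusted p is under 0.05. Of 16 tested members, 16 fell in MC against FC, where 32.6% of all transcripts fell, and their median log2 fold change was -1.27 beside -0.20 for all transcripts. In MFGR against FFGR 15 of 16 fell, with a median of -0.90 beside -0.19, where 32.8% of all transcripts fell. The limit given with the ND6 difference between male and female libraries holds for this comparison too. The list includes the mitochondrial ATP6, which was also counted among the mitochondrial transcripts above. In FFGR against FC 0 of 16 fell and 0 rose, and 0% of all transcripts changed in either direction by that rule. The median of the 16 was -0.14, where the log2 fold change of summed CIDEA was 0.37. The 16 values for FFGR against FC ran from -0.40 to 0.19. In MFGR against MC 1 of 16 rose and 1 fell, where 0.284% of all transcripts rose and 0.24% fell.

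The spread of CIDEA between fetuses of 1 group was ordinary for its level. The within-group SD of summed CIDEA was 0.21 on the log2 scale, above that of 36.6% of the 4574 features. Among the 1103 features within a factor of 2 of its mean level, 45.0% had a smaller SD.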

How the data were processed

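RNA of perirenal adipose tissue was sequenced from 4 fetuses in each of 4 groups. The authors checked reads with FastQC 0.11.9, removed low-quality sequences and ran Salmon (version not given in the sources used here) on Ensembl transcripts of Oar_rambouillet_v1.0. They deposited TPM for 35219 transcripts. Columns were matched to samples by title.

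Group means were fitted with limma 3.58.1, run in R 4.3.3, to log2(TPM + 1) of all 16 libraries, leaving 12 residual degrees of freedom, and the prior variance followed the mean level. The filter was 20 TPM in 3 libraries, or 1 TPM in 3 libraries for CIDEA-202 and HOXC9. Benjamini-Hochberg adjustment ran over all features. Ratios within a library were compared by exact permutation tests (scipy 1.17.1). The fit was tested on simulated data. Correlations between same-numbered fetuses, with group means taken off, ran from -0.12 to 0.27. For MFGR against FFGR they were 0.27 for fetus 2 and 0.25 for fetus 4. Correlations of differently numbered fetuses were not computed for reference. The labels give no pairing, and numbers were not used as pairs in the main fit. Members and lists were chosen with earlier results of these data known, and the marker ratios after the values were seen. Named were the CIDEA transcripts, the study's marker and mitochondrial transcripts and those most correlated with CIDEA. Of 31 brown adipocyte genes 2 could be matched, CIDEA and UCP1, and of 29 lipid droplet genes 1, FABP4. Reference tables at hand pair no Ensembl transcript with a symbol, so no sequence is shown.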

Additional observations from a re-analysis of the deposited data

Results flagged for a closer look

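The ratio of UCP1 to summed CIDEA in MFGR fetus 3 was 16.1, while the other 3 MFGR fetuses lay between 26.98 and 28.8. Its gap to the nearest fetus was 0.856 of the group's range, above the critical value of 0.829 for 4 samples (Dixon's test at 95%). Chance marks about 1 in 20 groups, and 28 groups of CIDEA values and ratios were examined. Without this fetus the log2 difference in the ratio between MFGR and FFGR was 0.69.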

How the results depend on the processing

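All values here are log2 differences. The call of summed CIDEA between MFGR and FFGR kept an adjusted p under 0.05 under every alternative (limma, 0.00151 to 0.0330), but the fold fell under 1.5 with median-of-ratios scaling (-0.43) and quantile normalization (-0.37), and leaving out 1 library gave -0.68 to -0.57. These scalings shift the median of all features by over 0.1, and relative to the median CIDEA stood at -0.42 and -0.45. Values near 0 turned. For MFGR against MC, summed CIDEA was 0.036 and CIDEA-201 0.055 with median-of-ratios scaling, and 0.024 and 0.0495 with a weight for each library. For MC against FC they were 0.14 and 0.088 with quantile normalization. CIDEA-202 between the sexes, averaged, was 0.10 with median-of-ratios scaling, 0.18 with quantile normalization and 0.053 without mitochondrial transcripts, where its average over growth restriction was -0.015. The cause of these turns was not tested, and none of them passed the test.

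Leaving out 1 library at a time, CIDEA-201 for MFGR against MC ran from -0.18 to 0.0017. CIDEA-202 ran from -0.081 to 0.50 for MC against FC, from -0.00067 to 0.58 for FFGR against FC, from -0.089 to 0.20 for growth restriction averaged and from -0.17 to 0.12 for sex averaged, and in each of these FC fetuses 1 and 3 set both ends. The CIDEA-202 to CIDEA-201 ratio ran from -0.22 to 0.013 for MFGR against MC, from -0.29 to 0.095 for FFGR against FC and from 0.31 to 0.49 for MFGR against FFGR, where each exact permutation p was 0.0571, the smallest that 3 against 4 allows. For MC against FC, UCP1 per CIDEA ran from -0.59 to 0.085 and ADIPOQ per CIDEA from -0.025 to 0.15.

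With fetus number as a replicate block, summed CIDEA for MFGR against FFGR kept its call (-0.62, limma adjusted p = 0.00748), and the number of features called for MFGR against MC went from 21 to 7. In pairs by number the CIDEA-202 to CIDEA-201 ratio differed by 0.41 between MFGR and FFGR (exact permutation p = 0.125, the smallest that 4 pairs allow). Fetuses with the same number share only a number. Called features for MFGR against MC also came to 98 with median-of-ratios scaling, 112 without mitochondrial transcripts, 152 with library weights, 12 with quantile normalization and 8 at the filter of 1 TPM. Library weights called 53 for the interaction, where the fit without them called 0, and 13 for growth restriction averaged, where it called 2 and median-of-ratios scaling called 9. TPM keeps no depth, so counting error was not assessed.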
